A study of Rattus norvegicus with 8 samples.

Results

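The gene expression of unstressed oligodendrocyte precursor cells in culture was described from the 4 control samples of a rat RNA sequencing study of 8 samples. Genes were taken into the set where their level reached at least 1 FPKM in each of these 4 samples. FPKM is the number of fragments of a gene divided by its length and by the library's total, so that levels may be set side by side between genes. The rule left 10658 of the 32662 genes in the table (32.6%), of which 10643 lay outside the mitochondrial genome and 15 in it. Another 1066 genes reached 1 FPKM in 1 to 3 of the samples, and 16666 were listed at 0 in all 4.

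The cells were primary cultures from the cerebral cortex of Sprague Dawley rat pups aged 1 to 2 days. Mixed glia were grown with 20% serum, the cells that did not adhere were collected, and these were kept for 4 to 5 days in Neurobasal medium with 2% B27 supplement, 2 mM glutamine, 1% antibiotic, and PDGF and FGF at 10 ng/ml each. The controls were not deprived of oxygen and glucose, the treatment given to the other samples for 6 h. No transgene, genotype or sorting step was recorded, so other cells that attach loosely were not removed by any step on record. Nothing in the labels says that the 4 samples came from separate cultures or litters, and the spread between them may be technical.

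Oligodendrocyte precursor cells are the dividing glia that give rise to the myelin-forming cells of the brain. They are known by the receptor for PDGF, by the proteoglycan NG2 (the product of Cspg4) and by the transcription factors Olig1, Olig2 and Sox10. PDGF and FGF keep them dividing and hold back differentiation. On the way to myelin they pass through a committed stage, at which Gpr17, Bcas1 and Enpp6 are expressed, before the genes of compact myelin are switched on.

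The 4 libraries were alike in depth as far as this could be read. Relative depth, read from the step sizes of low values, was 1, 1.03, 1.11 and 1.07 in controls 1 to 4, from 1443 to 1502 genes per comparison, and the total number of fragments is unknown. Between 11076 and 11247 genes reached 1 FPKM in a sample. Across the 10643 genes the log2 values of any 2 samples correlated at 0.983 to 0.990, a description over genes that share each library. In all that follows a value after ± is the SD over the 4 samples (n = 4), values in a row are for controls 1 to 4 in that order, and no test between groups was made, since 1 group holds no contrast.

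The 5 markers of the precursor stood high in every sample, and none went against the label of the cells. Olig1 (ENSRNOG00000028648), a basic helix-loop-helix factor of the lineage, was at 844, 744, 786 and 804 FPKM, rank 34 of all genes outside the mitochondrial genome. Olig2 (ENSRNOG00000028658), its partner and the factor that specifies the lineage, was at 313, 288, 296 and 292 FPKM (rank 139). Pdgfra (ENSRNOG00000002244), the PDGF receptor that carries the growth signal, was at 247, 318, 283 and 256 FPKM (rank 159). Control 2 was the highest for this receptor and control 1 the lowest, whereas Olig1 and Olig2 were highest in control 1. Sox10 (ENSRNOG00000011305), which acts at all stages of the lineage, was at 249, 235, 238 and 212 FPKM (rank 207). Cspg4 (ENSRNOG00000017208), the proteoglycan NG2, was at 74.9, 97.3, 84.5 and 73.1 FPKM (rank 733). The ranges of Olig2 and Pdgfra overlapped, as did those of Pdgfra and Sox10, while Cspg4 lay below the other 4 in all samples. The ratio of Olig1 to Olig2 was 2.69, 2.59, 2.65 and 2.76, and that of Pdgfra to Cspg4 was 3.30, 3.27, 3.35 and 3.50.

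The promoters of 3 of these 5 markers, those with an entry in the table used, are shown because they differ in GGGCGG, an element found in most promoters of the set. They come from RefSeq (GRCr8) and run from 250 bases before the transcription start to 10 bases after it, with CCAAT and GGGCGG on either strand in capitals (ATTGG and CCGCCC where the element lies on the other strand).
Pdgfra (chr14:33408507-33408766, minus strand): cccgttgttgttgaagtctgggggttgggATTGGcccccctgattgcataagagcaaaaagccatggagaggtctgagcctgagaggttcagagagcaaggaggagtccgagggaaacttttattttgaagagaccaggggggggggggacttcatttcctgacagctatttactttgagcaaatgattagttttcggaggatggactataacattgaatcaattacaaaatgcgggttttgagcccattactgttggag
Cspg4 (chr8:66160692-66160951, plus strand): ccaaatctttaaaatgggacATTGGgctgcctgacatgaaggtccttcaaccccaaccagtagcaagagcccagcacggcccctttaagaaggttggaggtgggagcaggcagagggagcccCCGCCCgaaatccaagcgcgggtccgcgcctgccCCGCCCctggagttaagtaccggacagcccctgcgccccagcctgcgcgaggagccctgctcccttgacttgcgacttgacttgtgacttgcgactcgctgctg
Olig2 (chr11:43961335-43961594, plus strand): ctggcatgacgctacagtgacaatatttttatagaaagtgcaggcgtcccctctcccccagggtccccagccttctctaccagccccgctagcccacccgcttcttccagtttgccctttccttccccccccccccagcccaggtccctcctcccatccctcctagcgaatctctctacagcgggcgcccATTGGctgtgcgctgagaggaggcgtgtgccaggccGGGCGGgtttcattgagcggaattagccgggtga

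CCAAT is the box bound by NF-Y and GGGCGG the box bound by Sp1 and its relatives. Each of the 3 windows held 1 CCAAT box. Pdgfra held no GGGCGG, Olig2 held 1 and Cspg4 held 2. A window of 300 bases (250 before the start, 50 after) could be matched by symbol for 13336 genes of the table, 7952 of them in the set. GGGCGG stood on either strand in 65.6% of promoters of the set, in 47.7% of those of genes above 0 but under 1 FPKM in at least 1 sample, in 21.4% of those of genes listed at 0, and in 53.4% of all. The median GC content went the same way, at 62.0%, 57.3% and 50.2%, and the part of base composition in these shares was not tested. TATAAA showed the opposite order, at 5.85%, 10.5% and 20.5%, with 9.61% of all promoters holding it. CCAAT was in 38.3%, 34.4% and 38.4%, and in 37.5% of all. Within the set, TATAAA was in 6.39% of promoters of genes under 10 FPKM, 5.06% of those from 10 to 100 FPKM and 9.15% of those at 100 FPKM or more. Of 13 promoters of the wider precursor list described later, 6 held GGGCGG (46.2%) and 7 held CCAAT (53.8%). These shares are counts of letters and not of bound sites.

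Levels in the set spread over more than 3 orders of magnitude. The median gene outside the mitochondrial genome was at 11.9 FPKM, with quartiles of 5.31 and 26.97 FPKM. Of the set, 5929 genes had a mean of 10 FPKM or more, 576 (5.41%) of 100 FPKM or more, and 15 of 1000 FPKM or more. The 100 most abundant genes held 23.7%, 21.3%, 21.9% and 22.7% of the summed FPKM outside the mitochondrial genome, and the mean share was 22.4% ± 1.02. As few as 622, 742, 711 and 684 genes made up 50% of that sum. Control 1 was thus the most concentrated sample and control 2 the least. A set of 660 genes had only a clone or locus identifier, and these are counted but not named.

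**Figure D1:**
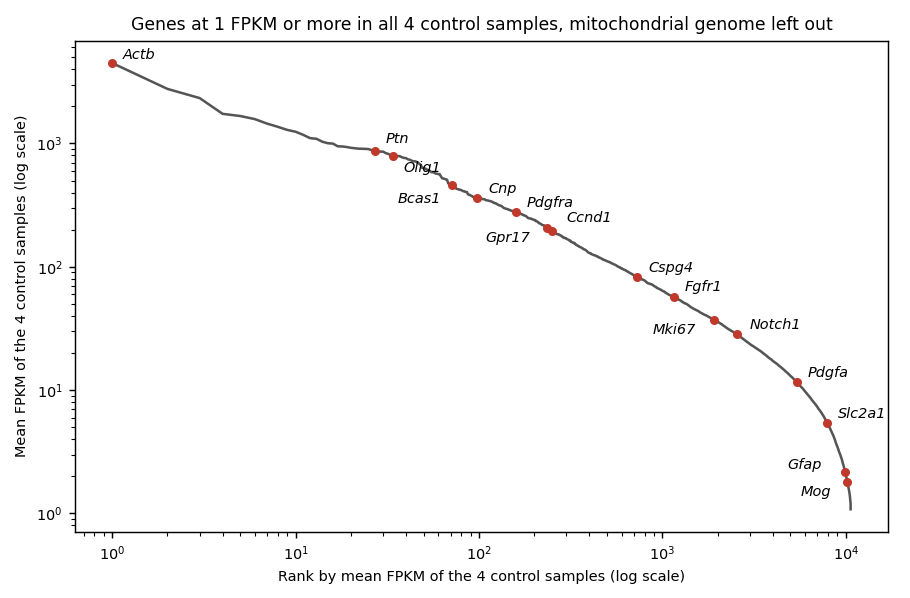
Mean FPKM of the 4 control samples (vertical, log scale) against rank (horizontal, log scale) for the genes at 1 FPKM or more in all 4 samples, outside the mitochondrial genome. Red points mark named genes from Actb (4488 FPKM) to Mog (1.80 FPKM), with the precursor markers Olig1, Pdgfra and Cspg4 in the upper part of the curve.

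The most abundant genes outside the mitochondrial genome built the cytoskeleton and the translation machinery. Actb, the cytoplasmic actin, led in every sample at 4628, 4442, 4457 and 4425 FPKM. Eef1a1, the factor that brings tRNA to the ribosome, followed at 2923, 2623, 2640.0 and 2896 FPKM, and Tpt1, a growth-related protein whose messenger is itself under translational control, at 2585, 2147, 2205 and 2395 FPKM. These 3 kept their order in each sample. The actin-sequestering peptides Tmsb4x and Tmsb10 were at 1739 ± 212 and 1669 ± 195 FPKM, and Cfl1, which severs actin filaments, at 1448 ± 103 FPKM. Tmsb10 stands on a second row of the table at 100.6 FPKM, and the higher row was used. Ywhae, a phosphoserine-binding adaptor protein, was at 1226, 1133, 1168 and 1173 FPKM, with a CV of 3.28%. Ppp1r14b, an inhibitor of protein phosphatase, was at 1005 ± 90.3 FPKM, and Ckb, the brain creatine kinase, at 923 ± 70.1 FPKM. The other 11 of the 20 most abundant genes with a symbol were 10 ribosomal genes (Rpl13, Rpl35, Rpl21, Rpl23, Rps2, Rpl41, Rpl19, Rpsa and Rplp1 among them), from 1575 FPKM for Rpl13 to 916 FPKM for Rplp1, and Cst3, which is described with the secreted proteins.

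Below these, genes of the neural lineage appeared among ribosomal genes. Ptn, a secreted growth factor, held rank 27, Fabp7, the fatty acid binding protein of neural progenitors, rank 32, and Olig1 rank 34. Nnat, an imprinted membrane protein of the developing brain, was at 929, 792, 838 and 875 FPKM. Tubb5 and Tubb2b, the beta tubulins that led their family, were at 865 ± 59.0 and 689 ± 40.7 FPKM. Stmn1, which destabilises microtubules, was at 775, 618, 681 and 790.3 FPKM. Bcas1 (rank 71), Serpine2 (rank 82) and Cnp (rank 98) were the other genes of the lineage and secreted lists among the 100. The gene that closed the 100 was at 358 FPKM.

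Ribosomal protein genes made up 46 of the 100 most abundant genes. The 78 of them in the set had a median of 397 FPKM and held 12.2%, 10.4%, 10.8% and 11.3% of the summed FPKM outside the mitochondrial genome. They did not vary independently between samples. Of the 78, 72 were highest in control 1 and 65 were lowest in control 2, against 30.3% and 26.7% of all 10643 genes. The median ribosomal gene lay 0.25 above the mean of the other samples in control 1 and at -0.19 in control 2 on the log2 scale, where the median of all genes was at -0.0038, 0.0072, 0.0010 and 0.0102. Many such genes have near-identical processed copies in the genome, so single values are uncertain. Rps6 was listed at 0 in all 4 samples, which for a gene of every ribosome may be a failed estimate.

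A start with a run of pyrimidines is the mark of messengers for ribosomal proteins and elongation factors, whose translation follows growth signals. The start regions of 6 abundant ribosomal genes are shown for this run. Each is from RefSeq (GRCr8), from 40 bases before the annotated start to 15 bases after it, and capitals mark the pyrimidine run that begins at the start.
Rpl35 (chr3:43165907-43165961, minus strand): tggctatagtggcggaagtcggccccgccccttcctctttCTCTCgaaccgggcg
Rpl19 (chr10:83519024-83519078, plus strand): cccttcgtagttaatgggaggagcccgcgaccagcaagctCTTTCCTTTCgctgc
Rplp1 (chr8:71290858-71290912, minus strand): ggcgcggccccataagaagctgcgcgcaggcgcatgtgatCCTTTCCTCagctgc
Rplp0 (chr12:46718376-46718430, minus strand): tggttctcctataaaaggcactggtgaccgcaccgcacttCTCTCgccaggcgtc
Rps7 (chr6:50999431-50999485, minus strand): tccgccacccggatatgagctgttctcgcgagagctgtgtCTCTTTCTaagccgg
Rps27 (chr2:177964592-177964646, minus strand): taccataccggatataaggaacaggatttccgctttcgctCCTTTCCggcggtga

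In these 6 the run was 5, 10, 9, 5, 8 and 7 bases long, in the order shown. Such a start, a C followed by 4 or more of C or T at the annotated first base, was found on 21 of the 57 ribosomal genes with a promoter entry (36.8%). It was found on 2.83% of all promoters of the set and on 2.68% of all matched promoters. Among genes at 100 FPKM or more that are not ribosomal the share was 3.13%. Annotated starts can be off by some bases, and such a gene would be missed by a rule that reads from the first base. The 6 genes were at 1365 ± 163, 946 ± 102, 916 ± 133, 906 ± 92.8, 901 ± 53.0 and 804 ± 105 FPKM in the order of the sequences, and each was highest in control 1.

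Genes encoded in the mitochondrial genome held 27.7%, 28.1%, 27.6% and 26.3% of all summed FPKM. The named genes ran from Mt-nd4 at 62.1, 57.1, 58.2 and 55.3 FPKM to Mt-atp8 at 43140.2, 44995, 43037 and 40801 FPKM. Mt-co1, the catalytic subunit of cytochrome oxidase, was at 13051, 12428, 12105 and 11814 FPKM, with control 1 highest and control 4 lowest. Short and overlapping genes such as Mt-atp8, Mt-nd4 and Mt-nd4l cannot be apportioned with certainty. Each of 3 unnamed rows of that genome held a value in 1 sample only (7629 FPKM in control 1, 4531 FPKM in control 3, 4649 FPKM in control 4) and 0 in the rest, so shares that include that genome carry this error. Shares outside the mitochondrial genome are used for this reason.

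Most of the wider precursor list was expressed at high levels. Of its 24 matched genes, 23 were in the set, and the median over all 24 was 82.3 FPKM, against 11.9 FPKM over the genes of the set. The exception was Emid1 at 0.526 FPKM. Their summed level was 3514, 3595, 3562 and 3388 FPKM, or 0.984%, 1.08%, 1.06% and 0.983% of the total outside the mitochondrial genome. In such bulk samples fewer cells of a type and less RNA per cell cannot be told apart. Ptprz1, a receptor phosphatase that binds pleiotrophin, was at 289, 394, 348 and 336 FPKM. Cacng4, an auxiliary subunit of AMPA receptors, was at 235, 214, 221 and 202 FPKM, and Cspg5, a brain proteoglycan, at 214, 205, 196 and 197 FPKM. These 3 differed in which sample was highest, as Ptprz1 was lowest in control 1, where Cacng4 and Cspg5 were highest. Sox8 and Sox6, factors of the lineage, were at 149 ± 9.52 and 82.1 ± 15.02 FPKM. Nkx2-2, which acts in specification and differentiation of precursors, was at 67.1 ± 4.73 FPKM.

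Of 14 matched genes of the committed stage, 12 were in the set, at levels across a wide range. Bcas1, a marker of newly committed and early myelinating cells, was at 503, 449.7, 459 and 424 FPKM, above Pdgfra in every sample. Sirt2, a deacetylase of the oligodendrocyte cytoplasm, was at 312, 267, 263 and 240.3 FPKM, and Gpr17, the receptor that marks the committed stage, at 199, 227, 197 and 205 FPKM. Fyn, the kinase that links axon contact to differentiation, was at 202, 199, 191 and 192 FPKM. The range of Gpr17 overlapped that of Fyn, and these 4 genes were the only ones of the list at 100 FPKM or more. Below them came Nfasc, Pik3r3, Rras2, Tnfrsf21, Tcf7l2 and Frmd4a, from 34.8 FPKM for Nfasc to 10.5 FPKM for Frmd4a. Enpp6, which marks newly forming oligodendrocytes, was far lower at 4.35, 4.70, 4.10 and 4.09 FPKM, and Bmp4, a ligand made at that stage, was at 3.49, 2.94, 3.38 and 3.94 FPKM. Neu4 and Casr, at 0.343 and 0.114 FPKM, were below 1 FPKM in all samples. The ratio of Bcas1 to Enpp6 was 116, 95.7, 112 and 104.

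Levels of genes of the myelinating stage ran from above 100 FPKM to 0. Of 31 matched genes of the myelinating stage, 23 were in the set with 2 at 100 FPKM or more, and the list's median was 6.84 FPKM. Cnp, an enzyme of non-compact myelin, was at 399, 345, 329 and 363 FPKM, and Mbp, the basic protein of compact myelin, at 251, 220.0, 186 and 302 FPKM. The range of Mbp overlapped that of Pdgfra (247 to 318 FPKM), and forms of Mbp were not separated. Cnp was above Mbp in all 4 samples, by 1.59, 1.57, 1.77 and 1.202 times. Mag, an adhesion protein of the inner myelin layer, was at 21.8 ± 4.33 FPKM, and Myrf, the factor that turns on myelin genes, at 20.3 ± 2.32 FPKM. Ugt8 and Fa2h, enzymes of galactolipid synthesis, were at 28.3 ± 2.29 and 6.84 ± 1.33 FPKM. Mog, which appears on mature myelin, was at 1.62, 1.37, 1.73 and 2.47 FPKM, and Mobp at 1.31, 1.21, 1.36 and 1.01 FPKM. Opalin, another late gene, was at 0.0131 FPKM in the mean and at 0 in 3 samples, and Klk6 was listed at 0 in all 4.

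The summed level of the precursor list was 3.31, 3.81, 4.12 and 3.13 times that of the myelinating list. Controls 1 and 4 had the larger myelinating sums (1062, 942, 865 and 1081 FPKM), and control 4 the smallest precursor sum. Of the 23 myelinating genes in the set, 9 were highest in control 1 and 9 in control 4, while 12 of the 23 precursor genes were highest in control 1 and 11 lowest in control 4. Of all genes, 30.3% were highest in control 1, and 22.4% were highest and 20.4% lowest in control 4, so that the 9 myelinating genes in control 1 (39.1%) are near the share of all genes. Microglial markers summed to 201, 231, 205 and 331 FPKM in the same samples, and their part in these differences was not tested.

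Genes of earlier neural progenitors were present in part. Of 17 matched genes, 12 were in the set. Fabp7 was at 923, 737, 817 and 817 FPKM and Sox2, a factor of neural stem cells, at 116, 111, 111 and 106 FPKM. Vim, an intermediate filament of progenitors and of many other cells, was at 138, 134, 139.8 and 196 FPKM, with control 4 above the other 3. Nes, the filament of neural stem cells, was at 3.66, 4.72, 4.58 and 6.08 FPKM. Sox9 and Sox11 were at 37.1 ± 2.94 and 31.3 ± 3.76 FPKM. Prom1, Gsx2, Dlx1 and Dlx2 were below 1 FPKM in all samples, at 0.289, 0.190, 0.571 and 0.611 FPKM.

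All 24 cell cycle genes examined were in the set, at a median of 38.1 FPKM. Pcna, the sliding clamp of DNA replication, was at 107, 104, 101 and 103 FPKM, and Cdk1, the kinase of mitosis, at 101, 91.8, 94.6 and 102 FPKM. Ccna2, the cyclin of S phase and G2, was at 86.2, 95.6, 100.3 and 106 FPKM, and Top2a, which untangles chromosomes, at 74.4, 88.6, 79.8 and 85.1 FPKM. The ranges of Pcna, Cdk1 and Ccna2 overlapped. Mki67, the common marker of dividing cells, was at 28.5, 43.2, 37.6 and 39.7 FPKM. Among the 12 matched inhibitors of the cycle, all in the set, Cdkn1b (p27) was at 51.7, 51.7, 55.7 and 53.4 FPKM and Cdkn1a (p21) at 49.99, 41.6, 46.6 and 48.5 FPKM. Cdkn2a, a locus of senescence, was at 17.5, 17.7, 10.98 and 12.7 FPKM, with controls 1 and 2 above controls 3 and 4.

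**Figure D2:**
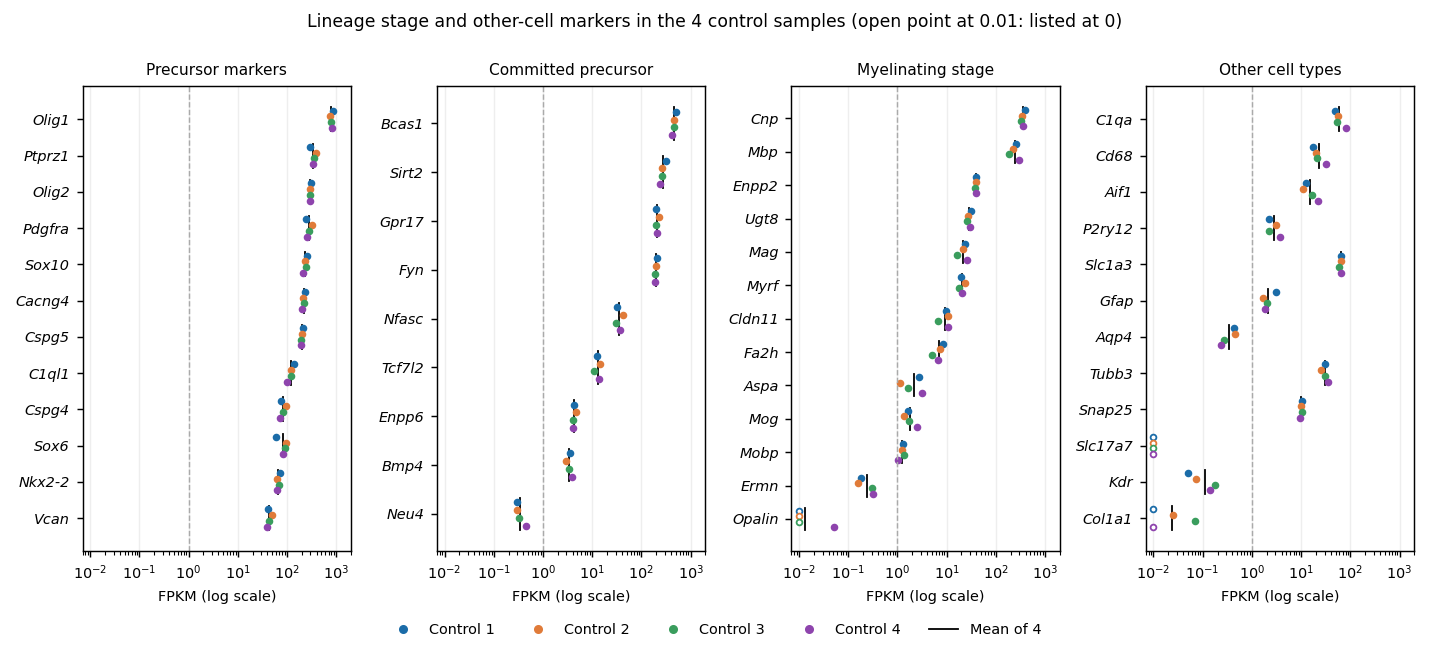
FPKM (horizontal, log scale) of selected genes of the precursor, committed and myelinating stages and of other cell types in each of the 4 control samples. Coloured points are samples, black bars their mean, open points at 0.01 stand for a value of 0, and the dashed line is 1 FPKM. The precursor markers drawn lie together at the right, but lower members of that list, such as Sox5 (7.47 FPKM) and Emid1 (0.526 FPKM), are not drawn. Myelinating genes run from Cnp (359 FPKM) down to Opalin (0.0131 FPKM), and microglial markers are highest in control 4.

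Of the transcription factors examined, 36 of 41 were in the set. After Olig1, Olig2 and Sox10 came Lbh, a transcription cofactor, at 207, 165, 198 and 168 FPKM. Sox8 followed at 162, 139, 151 and 145 FPKM, and Tcf12, an E protein that pairs with Olig2, at 85.3, 97.3, 89.7 and 92.9 FPKM. Tcf4, another E protein, was at 74.1, 101, 88.9 and 93.7 FPKM, so that the ranges of Tcf12 and Tcf4 overlapped. Id2, which blocks E proteins, was at 87.7, 91.1, 73.2 and 85.8 FPKM, against 5.87, 3.66 and 3.52 FPKM for Id1, Id3 and Id4. Etv5 and Etv1, factors downstream of FGF receptor signals, were at 70.0 ± 2.99 and 68.6 ± 4.596 FPKM. Hes5, an effector of Notch that holds back differentiation, was at 9.93, 13.4, 12.8 and 13.4 FPKM. Zfp488, a partner of Olig2 in differentiation, was at 12.2 ± 1.27 FPKM, Nkx6-2 at 1.32 ± 0.297 FPKM, and Olig3, which belongs to other regions of the nervous system, was listed at 0.

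Markers of other cells were read in the same libraries. All 12 matched microglial markers were found in at least 1 sample at 1 FPKM or more, and 11 of them in all 4. C1qa, C1qb and C1qc, the chains of complement C1q, were at 49.4, 54.97, 53.5 and 81.9, at 41.6, 48.5, 44.9 and 67.4 and at 48.3, 58.6, 41.1 and 72.0 FPKM. Aif1, the protein Iba1, was at 12.4, 11.1, 16.5 and 21.6 FPKM. All 11 in the set were highest in control 4, against 22.4% of all genes, and the median marker lay 0.61 above the mean of the other 3 samples there on the log2 scale. Lower members of the list were P2ry12 at 2.23, 3.04, 2.24 and 3.69 FPKM and Tmem119 at 0.859, 1.73, 1.48 and 2.02 FPKM. In the mean, Trem2 and Ptprc were at 2.20 and 1.41 FPKM, Cx3cr1 at 4.11 FPKM and Csf1r at 11.2 FPKM. The sum of the list, 242 ± 60.5 FPKM, compares with 3515 ± 90.7 FPKM for the precursor list, a ratio of 17.4, 15.6, 17.4 and 10.2 between the latter and the former.

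Of 13 astrocyte markers 10 were in the set, and their levels differed widely. Slc1a3, a glutamate transporter also found in precursors, was at 65.4, 64.0, 59.5 and 64.7 FPKM, and Sparcl1, a secreted synaptic protein, at 61.8, 51.2, 58.0 and 58.3 FPKM. Aldoc, an aldolase of glycolysis, was at 62.5, 52.2, 53.2 and 48.005 FPKM, S100b, a calcium-binding protein that the lineage also makes, at 11.8 ± 2.37 FPKM, and Slc1a2, another glutamate transporter, at 8.97 ± 1.88 FPKM. Gfap, the astrocyte filament, was at 3.07, 1.71, 2.00 and 1.87 FPKM. Aqp4, the water channel of astrocyte endfeet, was at 0.429, 0.444, 0.267 and 0.230 FPKM, and Aldh1l1 at 0.150 ± 0.105 FPKM. Of 15 neuronal genes 12 were in the set. Map2, a microtubule protein of dendrites that precursors can also express, was at 183, 234, 246 and 238 FPKM, and Tubb3 at 29.9, 25.4, 30.5 and 34.9 FPKM. Dcx, a microtubule protein of young neurons, was at 41.8, 51.5, 48.8 and 42.3 FPKM, and Syn1, a protein of synaptic vesicles, at 35.3, 34.8, 34.4 and 33.9 FPKM. Elavl3, an RNA-binding protein, was at 14.6 ± 0.301 FPKM, and Snap25, which takes part in vesicle fusion, at 10.1 ± 0.475 FPKM. Rbfox3, the nuclear protein NeuN, was at 4.83, 4.69, 6.55 and 4.84 FPKM. The vesicular glutamate transporter genes Slc17a6 and Slc17a7 were at 0.00924 and 0 FPKM, and Gad1, which makes GABA, at 0.968 ± 0.338 FPKM. None of 12 vascular and stromal markers was in the set, and their sum was 0.450 ± 0.112 FPKM. None of 5 ependymal markers was in the set, and of 7 Schwann cell markers only Sox10, which the lineage shares, was.

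Receptor tyrosine kinases carry the growth factor signals, and 25 of 57 were in the set. Pdgfra led in every sample. Ntrk2, the receptor of BDNF, was at 129, 163, 145 and 137 FPKM, and the ratio of Pdgfra to Ntrk2 was 1.92, 1.95, 1.95 and 1.86. Fgfr1, the main FGF receptor here, was at 54.4, 60.8, 54.8 and 58.3 FPKM, and Pdgfra was 4.54, 5.23, 5.16 and 4.39 times that level. The table gives 1 value per gene, so truncated and full-length forms of Ntrk2 were not separated. Ryk, a Wnt receptor, was at 42.8, 42.5, 40.4 and 40.1 FPKM, and Ntrk3, the receptor of neurotrophin 3, at 29.1, 38.0, 35.2 and 30.9 FPKM. Ddr1, a collagen receptor, was at 20.5, 20.5, 19.7 and 23.5 FPKM, and its range overlapped that of Erbb3, a neuregulin receptor, at 16.5, 22.2, 18.9 and 15.5 FPKM. Erbb4 was at 5.61, 11.5, 10.8 and 8.46 FPKM, lowest in control 1, and Erbb2, which pairs with both, at 0.358, 0.423, 0.251 and 0.296 FPKM. Igf1r and Insr, the receptors of IGF1 and insulin, were at 3.92 ± 0.987 and 4.73 ± 0.693 FPKM. Egfr was at 0.683, 1.25, 1.10 and 1.25 FPKM and missed the set through control 1. Pdgfrb, the PDGF receptor of pericytes, was at 0.0177 FPKM.

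G protein-coupled receptors had 27 of 60 in the set, headed by Gpr17. Adgrg1, an adhesion receptor that keeps precursors dividing, was at 84.9, 85.7, 87.0 and 99.9 FPKM, and Adgrb1 at 75.9, 85.8, 76.7 and 72.9 FPKM. Gabbr1, a subunit of the GABA-B receptor, was at 63.6, 56.8, 58.9 and 56.4 FPKM, while its partner Gabbr2 was at 6.36, 7.91, 7.68 and 6.45 FPKM. Gpr37l1 was at 63.2, 49.6, 54.4 and 42.3 FPKM, highest in control 1 and lowest in control 4. Adora1, an adenosine receptor, was at 36.3, 41.1, 41.9 and 38.95 FPKM, and Ednrb, an endothelin receptor, at 20.5, 26.3, 23.9 and 32.1 FPKM. The other adenosine receptors Adora2a and Adora2b were at 0.105 and 0.286 FPKM, and Adora3 was listed at 0. Chrm3 was the muscarinic receptor of the highest level (5.77, 5.91, 6.79 and 6.25 FPKM), with Chrm4, Chrm5 and Chrm2 at 0.278, 0.0467 and 0.0337 FPKM and Chrm1 listed at 0. Oprk1, the kappa opioid receptor, was at 0.0837 ± 0.0704 FPKM. P2ry12, a microglial receptor, was in the list too.

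Subunits of ion channels opened by transmitters were expressed in part. Of the AMPA, kainate, delta and NMDA subunits, 13 of 18 were in the set. Gria2, which makes AMPA receptors impermeable to calcium once edited, was at 32.5, 39.7, 38.4 and 34.8 FPKM. Gria3 and Gria4 were at 34.1, 36.4, 36.4 and 30.4 and at 28.3, 32.6, 33.1 and 31.1 FPKM, and the ranges of these 3 overlapped, while Gria1 was at 1.80, 1.70, 1.18 and 1.35 FPKM. The kainate subunits Grik5 and Grik3 were at 27.8 ± 0.781 and 23.9 ± 4.41 FPKM. For NMDA receptors the obligatory Grin1 was at 8.35, 9.69, 10.2 and 8.40 FPKM and Grin3a at 8.70, 14.7, 11.01 and 10.2 FPKM. All 4 GluN2 genes were below 1 FPKM in each sample, with Grin2d highest at 0.202 ± 0.107 FPKM. Of the GABA-A and glycine subunits, 7 of 17 were in the set, and Glrb, which anchors glycine receptors, was at 25.01, 25.1, 20.3 and 22.9 FPKM. Gabrg1 and Gabra3 were at 10.1 ± 0.775 and 9.94 ± 0.925 FPKM. The subunits Gabrb1 and Gabrb2 were at 0.178 ± 0.207 and 0.317 ± 0.120 FPKM. Chrna4, a nicotinic subunit, was at 59.3, 67.3, 69.1 and 59.6 FPKM, and Chrnb2, its usual partner, at 1.62, 2.59, 2.86 and 2.52 FPKM.

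Receptors of differentiation signals differed widely in level. Notch1 was at 25.5, 31.3, 28.8 and 27.5 FPKM, above Notch2 (1.57, 1.99, 2.06 and 2.05 FPKM) in all samples. Bmpr1a and Bmpr2, type I and type II receptors of BMP, were at 22.0 ± 2.17 and 19.5 ± 3.82 FPKM, and Tgfbr2 was at 1.91 ± 0.280 FPKM. Ptch1, the receptor of Sonic hedgehog, was at 18.5, 22.8, 19.5 and 19.6 FPKM. Of the Frizzled receptors of Wnt that matched a row (Fzd7 and Fzd10 did not), Fzd3 was the highest at 11.8, 18.5, 15.9 and 16.2 FPKM, and Lrp6, their coreceptor, was at 10.4, 14.4, 13.1 and 12.9 FPKM. Bmpr2, Fzd3 and Lrp6 were each lowest in control 1. The cytokine receptor genes were led by Il1rap, at 25.5, 27.6, 27.2 and 25.5 FPKM, and Ifnar1, at 22.5, 25.9, 25.2 and 25.1 FPKM, whose ranges overlapped. Among nuclear receptors 16 of 28 were in the set, and Thra, which binds thyroid hormone, the classic signal for differentiation, was at 143, 131, 133 and 124 FPKM. Nr2f1, an orphan receptor of cortical patterning, was at 50.01, 50.5, 51.5 and 50.2 FPKM, and Nr3c1, the glucocorticoid receptor, at 14.4, 20.7, 19.3 and 18.6 FPKM on the higher of its rows (the mean is 33.9 FPKM with its rows summed). Esr1, Esr2, Vdr and Pgr were all below 0.1 FPKM in the mean (0.0793, 0.0251, 0.0720 and 0.0937 FPKM).

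Secreted growth factors were dominated by few genes. Ptn, the ligand of Ptprz1, was at 925, 816, 871 and 889 FPKM, and Metrn, a secreted neurotrophic protein, at 353, 304, 314 and 345 FPKM. Manf, which is released from the endoplasmic reticulum, was at 112, 101, 105 and 105 FPKM. Tgfa, a ligand of the EGF receptor, was at 51.5, 47.8, 47.8 and 43.3 FPKM, with Egfr near 1 FPKM in the same samples. Vegfa and Vegfb were at 7.36 ± 0.949 and 21.0 ± 0.566 FPKM. Bdnf was at 0.121, 0.0389, 0.0362 and 0.0755 FPKM, against its receptor Ntrk2 above 100 FPKM. The neurotrophins Ntf3 and Ntf4 and the cytokine Lif were listed at 0, and Igf1 was at 2.56 ± 1.19 FPKM. Of 36 matched genes of this kind 15 were in the set.

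Of the ligands of the receptors stimulated in this culture, Pdgfa was near the median gene of the set (11.9 FPKM) and the secreted FGF genes were low. Pdgfa, the ligand of Pdgfra, was at 14.3, 11.5, 10.4 and 10.2 FPKM, highest in control 1, and Pdgfc at 7.22, 6.76, 7.84 and 5.02 FPKM. The ratio of Pdgfra to Pdgfa was 17.3, 27.6, 27.2 and 25.1. Fgf2 was at 0.439, 0.789, 0.137 and 0.150 FPKM, with controls 3 and 4 below controls 1 and 2. Fgf12, Fgf11, Fgf13 and Fgf14, which stay inside the cell and bind sodium channels, were at 45.9 ± 3.41, 12.4 ± 1.23, 10.6 ± 0.643 and 5.23 ± 1.22 FPKM, and Fgf22 was the highest of the secreted FGF genes at 2.15 ± 0.640 FPKM. Of the 25 genes 9 were listed at 0. The Notch ligand Dll1 was at 20.4, 22.5, 20.0 and 20.3 FPKM and Jag1 at 2.02, 2.29, 2.41 and 2.14 FPKM. Cntn1, a contactin of the cell surface that can bind Notch, was at 277, 344, 318 and 308 FPKM, 10.9, 10.98, 11.02 and 11.2 times Notch1. Of Wnt and BMP genes, Sfrp2, a Wnt antagonist, was at 24.2, 21.9, 23.0 and 24.2 FPKM and Wnt7b, a signal from precursors to vessels, at 22.5, 22.4, 22.8 and 23.7 FPKM. Wnt7a was at 7.94 ± 0.360 FPKM and Bmp7 at 8.01 ± 0.986 FPKM.

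Other secreted proteins reached higher levels. Cst3, the protease inhibitor cystatin C, was at 1219, 842, 969.9 and 1334 FPKM, and Apoe, the lipid carrier, at 301, 338, 301 and 471 FPKM. Both are also genes of microglia, and both were highest in control 4, as were the 11 microglial markers, although Cst3 was also high in control 1, where those markers were low. The microglial sums were 201, 231, 205 and 331 FPKM. The part of these cells in the levels of Cst3 and Apoe was not tested. Psap, the precursor of the saposins, was at 217, 225, 214 and 245 FPKM, and Bcan, a proteoglycan of the brain matrix, at 127, 143, 137 and 148 FPKM. C1ql1, a synaptic organiser, was at 139, 119.8, 123 and 97.9 FPKM. Serpine2, an inhibitor of thrombin, was at 420.5, 409, 405 and 407 FPKM, with a CV of 1.74%. Mmp15 and Mmp16, membrane-bound metalloproteinases, were at 171 ± 7.53 and 78.7 ± 9.75 FPKM, and Timp2 was the highest of their inhibitors at 90.6 ± 4.41 FPKM. Fn1, Col1a1 and Col3a1, proteins of the stromal matrix, were at 0.344, 0.0233 and 0.0497 FPKM.

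Guidance molecules and cytokines closed the list. Sema6a, a membrane semaphorin, was at 48.6, 59.6, 54.5 and 58.5 FPKM and Ntn1, the netrin that guides axons and precursors, at 43.9, 50.1, 52.5 and 48.7 FPKM. Sema3a, which repels axons and precursors, was at 11.8, 17.5, 16.1 and 15.1 FPKM, lowest in control 1. The Slit genes Slit1, Slit2 and Slit3 were at 0.407, 0.337 and 0.108 FPKM. Mif, a cytokine made by many cells, was at 117, 134, 133 and 119 FPKM, and the next of that list was Cxcl16 at 6.60, 6.48, 7.79 and 10.5 FPKM. Il6, Tnf, Ccl5, Cxcl2 and Csf2 were listed at 0 in all samples, and Il1b was at 0.450 ± 0.305 FPKM. Cxcl16 and Lgals3 (5.24, 6.01, 5.62 and 9.64 FPKM) were highest in control 4, as the microglial markers were.

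**Figure D3:**
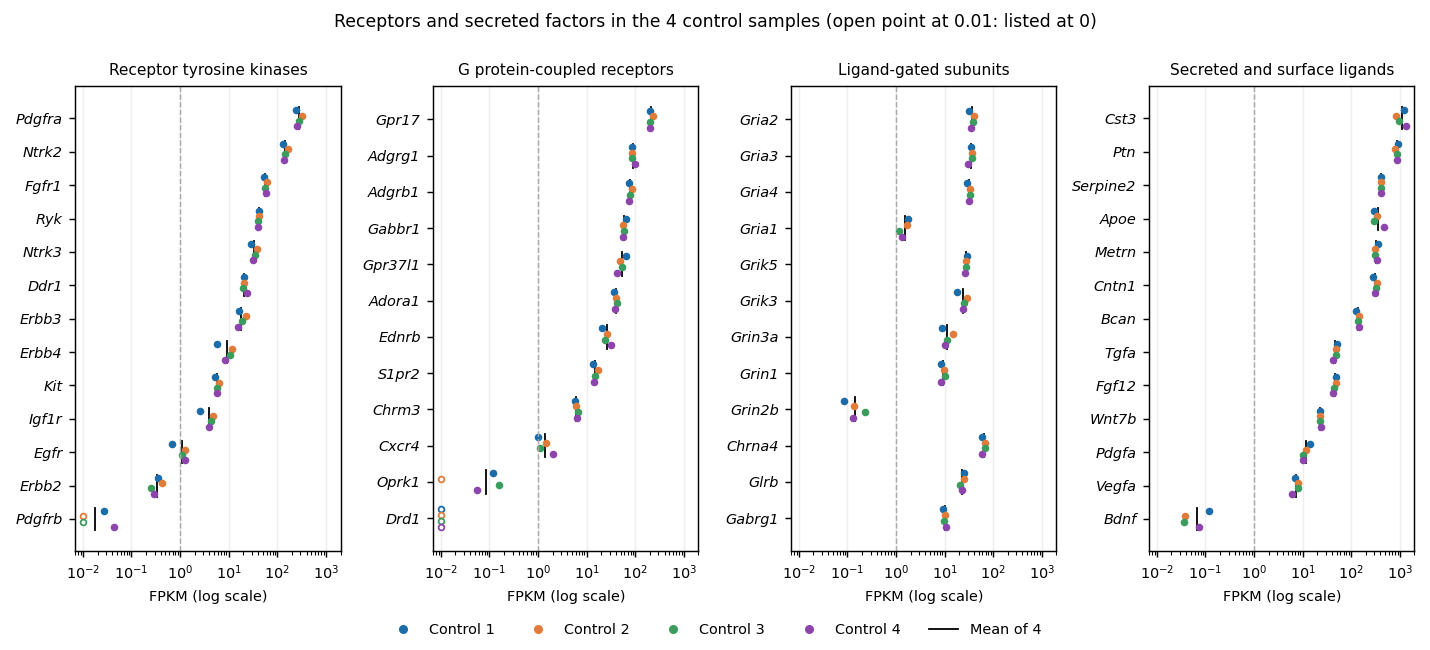
FPKM (horizontal, log scale) of selected receptors, channel subunits and secreted or surface ligands in each of the 4 control samples, with the same symbols as in the plot of lineage markers. Pdgfra (276 FPKM) and Gpr17 (207 FPKM) lead their panels, Grin2b and Gria1 stand apart from the other subunits, and Bdnf (0.0678 FPKM) lies far below Cst3 (1091 FPKM).

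The table gives a value per gene and not per transcript, so splice forms were not measured, and the choice among related genes was read instead. In 64 of 69 gene families the same member led in all 4 samples. The median leader held 69.5% of its family's summed FPKM, 16 leaders held 90% or more, 40 held 50 to 90%, and 13 less. The share differed little between samples, with a median SD of 1.42 percentage points. The range of the leader overlapped that of the next gene in 5 families.

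Enzymes and core proteins were often carried by 1 gene. Pkm, the pyruvate kinase of most tissues, was at 103 ± 7.84 FPKM and Pklr was near 0. Eef1a1 held nearly all of the expression of elongation factor 1 alpha, with Eef1a2, the form of mature neurons and muscle, at 0.351 ± 0.169 FPKM. Ckb held 98.2% ± 0.198 of the creatine kinases, and Hk1 92.5% ± 0.535 of the hexokinases, with Hk2 at 2.62 ± 0.405 FPKM. Ldhb and Ldha, the lactate dehydrogenase subunits, were at 143 ± 12.9 and 68.4 ± 3.55 FPKM, and Ldhb held 68.4, 64.2, 67.7 and 70.0%. Slc16a1, a lactate transporter, was at 13.5 ± 0.849 FPKM, above Slc16a7 at 1.37 ± 0.132 FPKM. For glucose transporters Slc2a1 was at 5.42 ± 0.797 FPKM, while Slc2a3 was listed at 0. Eno1 was at 183 ± 14.4 FPKM and Eno2 listed at 0, and Hsp90ab1 was at 738 ± 21.9 FPKM against 6.19 ± 0.380 FPKM for Hsp90aa1. A value of 0 for Slc2a3 or Eno2 may be a failed estimate, as for Hprt1, Ndufa1 and Cd151, all listed at 0. The shares in any family that holds such a gene are therefore uncertain.

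Regulators and signalling genes showed both clear and shared choices. Thra held 99.5% ± 0.0857 of the thyroid hormone receptors, with Thrb at 0.695 ± 0.0897 FPKM. Ccnd1 held 78.6, 75.4, 76.6 and 77.8% of the D cyclins, and Cdk4 held 90.1% ± 0.700 of its family, with Cdk6 at 2.05 ± 0.658 FPKM. Ezh2, the methyltransferase of dividing cells, was at 28.4 ± 1.52 FPKM, against 2.90 ± 0.270 FPKM for Ezh1. Smarca4, the BAF complex ATPase, held 79.4% ± 0.919, with Smarca2 as the remainder. Fgfr1 held 89.0% ± 0.555 of the FGF receptors and Ntrk2 81.2% ± 0.524 of the Trk receptors. Among SoxE factors Sox10 held 56.1, 57.2, 55.8 and 53.3%, Sox8 was at 149 ± 9.52 FPKM and Sox9 at 37.1 ± 2.94 FPKM. Sox6 held 82.8, 88.0, 88.9 and 87.9% of the SoxD factors, lowest in control 1. Bcan held 53.6% ± 1.87 of the hyalectans, with Ncan at 70.3 ± 4.75 FPKM and Vcan at 43.3 ± 3.94 FPKM. Gjb1 (connexin 32) was the highest of the connexins examined, at 11.1 ± 2.55 FPKM.

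The 5 families without a clear leader were the ferritin chains, the glutamate transporters, the PEA3 factors, the E proteins and the AMPA subunits. Ftl1 and Fth1, the iron storage chains, were at 649, 547, 561 and 676 and at 659, 474, 541 and 605 FPKM. Slc1a3 and Slc1a1 were at 65.4, 64.0, 59.5 and 64.7 and at 61.4, 64.0, 59.6 and 57.5 FPKM, and each led in 2 samples. Etv5 and Etv1 were at 65.9, 72.7, 69.5 and 71.7 and at 62.7, 68.4, 69.8 and 73.8 FPKM, and Tcf12 and Tcf4 also led in 2 samples each. In the beta tubulins and class I histone deacetylases the leader held less than 50% of the sum but led in every sample, at 46.4% ± 0.828 for Tubb5 and 41.8% ± 1.73 for Hdac2. The largest difference between samples in a leader's share was in the hyaluronan link proteins, where Hapln4, at 1.47 ± 0.211 FPKM, held 73.5, 86.9, 56.2 and 54.2%.

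**Figure D4:**
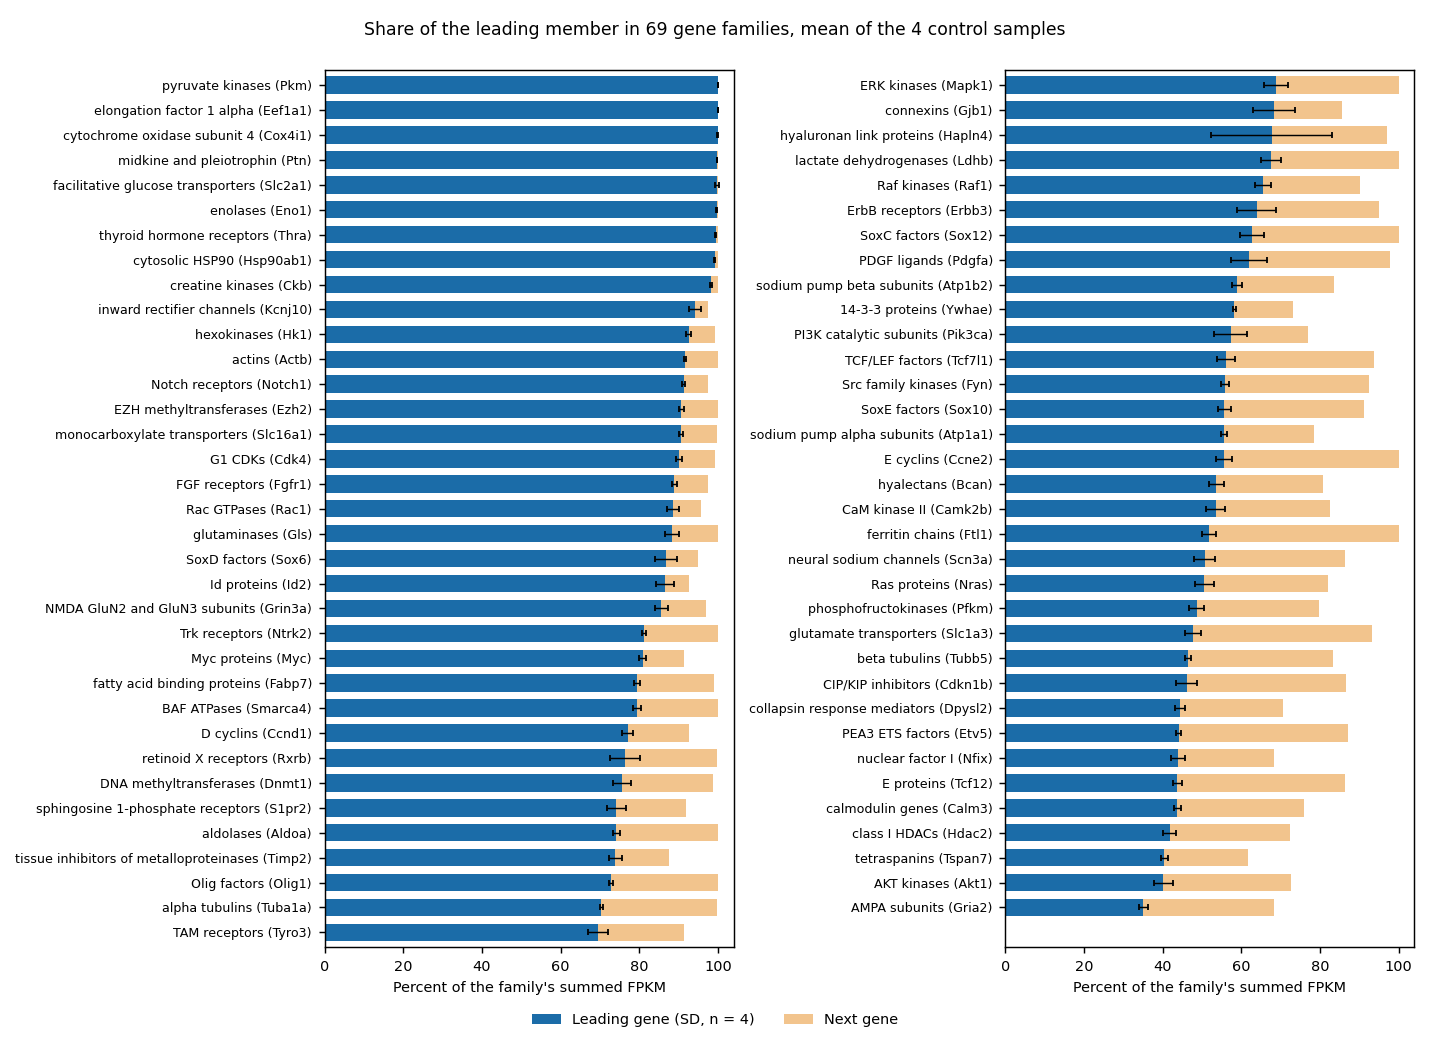
Share (%) of a family's summed FPKM held by its leading gene (blue, mean with SD of the 4 control samples) and by the next gene (orange), for the 69 families, with the leading gene in brackets. Shares run from nearly all for Pkm to 35.1% ± 1.06 for Gria2, and error bars are short except for the hyaluronan link proteins.

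The spread between the 4 samples was small for most genes. The median CV over the 10643 genes was 9.39%, with quartiles of 6.01% and 14.2%, and 5735 genes (53.9%) were below 10%. It depended on level, at a median of 17.5% for genes of 1 to 2 FPKM, 10.7% for 5 to 10 FPKM and 6.59% for 50 to 100 FPKM. It was 8.503% over the 15 genes at 1000 FPKM or more, of which several are ribosomal. For 37 genes the CV was above 50%, and the highest was 92.0%.

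Among the 5687 named genes with a mean of 10 FPKM or more, those with the highest CV were of several kinds. Chd9, a chromatin remodeller, was at 12.2, 47.6, 95.0 and 13.9 FPKM, and Mrpl33, a protein of the mitochondrial ribosome, at 25.6, 2.73, 22.9 and 7.97 FPKM. Chd9 was highest in control 3, and Mrpl33 was high in controls 1 and 3. Sepp1, the selenium carrier, was at 4.78, 11.99, 8.31 and 16.4 FPKM, and Tyrobp, the microglial adaptor, at 12.9, 14.3, 9.01 and 23.9 FPKM, both highest in control 4, as the microglial markers were. Serf1, Cox14 and Cox6b1 were at 121, 44.2, 53.3 and 72.0, at 17.9, 21.4, 47.7 and 37.4 and at 8.08, 6.48, 9.68 and 16.4 FPKM, and Nupr1l, BC030336 and Lyrm5 had CVs of 40.4%, 39.4% and 38.7%. The lowest CVs were those of Por, the electron donor of cytochrome P450 enzymes, at 23.8, 23.7, 23.6 and 23.7 FPKM, and Gnb1, a G protein beta subunit, at 202, 203, 202 and 203 FPKM. Actl6a, Smyd2, Chmp2b, Ap3m1, Sltm, Irf2, Lamtor3 and Scamp2 followed, with CVs from 0.434% to 0.780%. With 4 samples a CV is itself poorly known, and the lowest of many are low in part by selection.

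Control 1 stood furthest from the other samples. Of all 10643 genes, 30.3% were highest and 33.4% lowest in control 1, against 18.2% and 19.5% in control 3, and the median CV was 7.48% without control 1. The gene groups were set against the mean of the other 3 samples on the log2 scale. Control 1 was higher for ribosomal (0.25), myelinating (0.12) and precursor genes (0.11) and lower for microglial markers (-0.36) and cell cycle genes (-0.10). Precursor offsets were also positive in controls 2 (0.065) and 3 (0.057). By summed share, precursor genes were not highest in control 1, at 0.984%, 1.08%, 1.06% and 0.983% of the total outside the mitochondrial genome. Control 2 was lower for ribosomal genes (-0.19). It held the highest value of 16 of the 25 receptor tyrosine kinases in the set, where 29.1% of all genes were highest in it. For microglial markers the offsets of controls 2 and 3 were -0.13 and -0.20. The reference for controls 1 to 3 held control 4, the highest sample, which lowers their microglial offsets. The microglial sums were 201, 231, 205 and 331 FPKM, so control 2 lay above controls 1 and 3. Control 4 was higher for microglial markers (0.61) and cell cycle genes (0.08) and lower for precursor markers (-0.10).

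**Figure D5:**
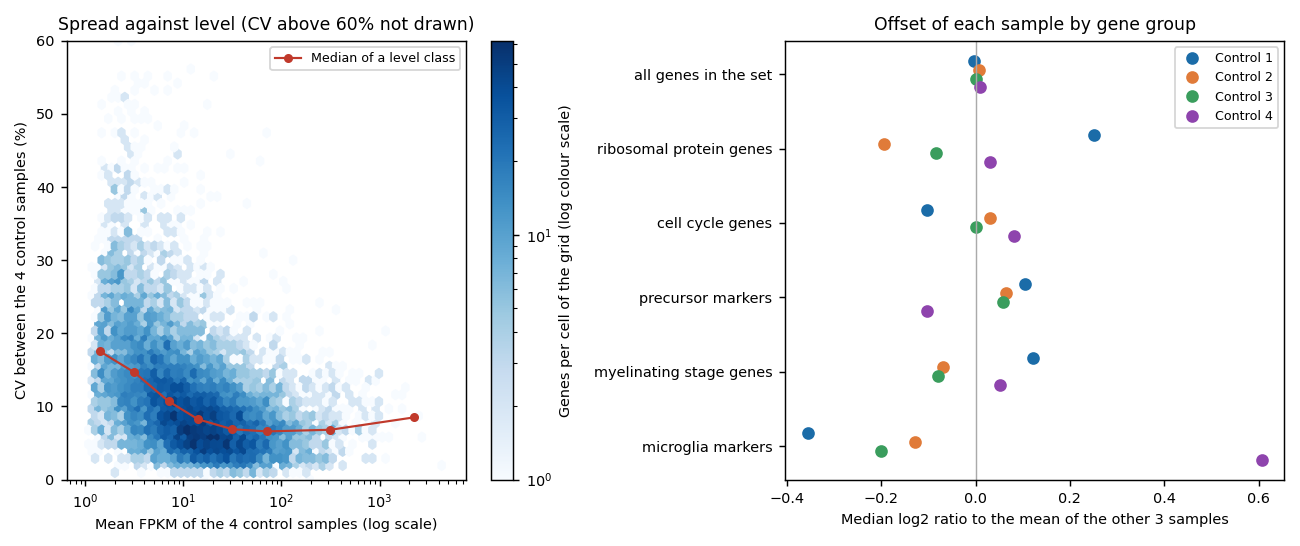
Left, CV between the 4 control samples (%) against mean FPKM (log scale) for the genes of the set, coloured by the number of genes, with the median of each level class in red. Right, the median log2 ratio of each sample to the mean of the other 3 for 6 gene groups, in which control 1 stands out for ribosomal genes (0.25) and control 4 for microglial markers (0.61).

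At the limit of the set, Tgfb3, Serhl2 and Fam84b were the 3 genes just inside, with lowest values of 1.00 FPKM each and means of 1.36, 1.43 and 1.86 FPKM. Just outside lay Slc25a13 (0.999996, 1.93, 1.10 and 1.36 FPKM) and Arrdc2 (0.999, 1.48, 1.26 and 1.75 FPKM), each through control 1, and a gene with a clone identifier at 115, 112, 0.998 and 122 FPKM, which missed the set through control 3. Leaving out any 1 sample, which cannot make the set smaller, gave sets of 10707 to 10791 genes.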

How the data were processed

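A spin-column kit was used for total RNA and a stranded Agilent SureSelect kit for the libraries, per the labels' protocols. The values deposited by the authors are FPKM, 1 per gene in each sample, per the file headers. Trimmomatic, FastQC and the genome build rn6 (Rnor_6.0) are named in the submitters' processing notes. For the aligner, the FPKM program, the annotation and whether strand was used, the choice is not given in the sources used here. Each FPKM is relative to the library's total, so abundant genes shift all others, and it holds no counts. Genes that overlap or have close copies are uncertain, as is a value of 0.

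Only the 4 control columns were analysed here. The mean, the SD and the CV (SD divided by the mean) were taken over the samples on the FPKM scale, and no test between groups was run (single samples were checked with Dixon's criterion). Relative depth came from genes at or below 0.5 FPKM. Their values in a pair of samples stand in whole-number ratios (up to 6, within 0.01 on the log2 scale) for 77.8% to 79.2% of the genes compared, a step tested on simulated data. No interval from counts could be made. The members and the lists were chosen with earlier results of these data known. There were 30 lists and 69 families with 863 symbols, of which 848 matched a row, 1 of them by another symbol. The row with the highest mean was used where a symbol stood on several.

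Named were the 5 precursor markers, the 20 most abundant genes with a symbol, the 6 highest members of each list with others whose role makes their level of interest, the highest and next member of a family, the 10 highest and 10 lowest CVs among genes of mean 10 FPKM or more, and 3 genes on each side of the threshold of 1 FPKM. Where a group is large, some of these are given in counts or figures only, and a few genes are not reported here. Alternatives were other thresholds, other scalings, medians, summed rows and each sample left out. Promoters came from RefSeq (GRCr8), a build other than that of the files, and were matched by symbol. Tables were made in Python 3.11.15 with numpy 2.4.6 and pandas 2.3.3, and figures with matplotlib 3.10.9.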

Additional observations from a re-analysis of the deposited data

Results flagged for a closer look

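In each group of 4 control samples, the gap between the highest or lowest sample and its nearest neighbour was divided by the group's whole range. The share passed Dixon's critical value for 4 samples in 17 of 304 groups (274 named genes and 30 list sums), where chance gives about 15.2. Over all genes of the set outside the mitochondrial genome 5.42% passed. The number of passes is thus near what chance gives, and the 17 are listed as values.

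In control 4, 5 genes were high and 1 was low. Vim stood at 138, 134, 139.8 and 196 FPKM (gap 0.904 of the range), C1qa at 49.4, 54.97, 53.5 and 81.9 FPKM (0.8291) and Adgrg1 at 84.9, 85.7, 87.0 and 99.9 FPKM (0.860). Hdgf was at 84.1, 85.2, 84.4 and 99.5 FPKM (0.926) and Fgf13 at 10.3, 10.3, 10.3 and 11.6 FPKM (0.972), while Camk2b was low there at 29.8, 29.4, 30.1 and 26.0 FPKM (0.841). C1qa is a microglial marker, and the sum of such markers was also highest in control 4.

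In control 2, 4 genes and 1 sum were high and 1 gene was low. These were Gmfb at 20.5, 26.7, 20.2 and 20.1 FPKM (0.947), Sox5 at 7.14, 8.41, 7.22 and 7.12 FPKM (0.923), S1pr1 at 3.28, 4.27, 3.38 and 3.30 FPKM (0.895) and Dll1 at 20.4, 22.5, 20.0 and 20.3 FPKM (0.833). The sum of proteases and their inhibitors was at 901, 928, 899 and 898 FPKM (0.872), and Ccne1 was low at 15.2, 14.95, 15.2 and 15.2 FPKM (0.880).

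In control 1, Actb was high at 4628, 4442, 4457 and 4425 FPKM (0.843), as was the sum of astrocyte markers at 231, 204, 207 and 206 FPKM (0.868). Ccnd1 was low there at 185, 201, 200.3 and 199.5 FPKM (0.917) and Notch2 at 1.57, 1.99, 2.06 and 2.05 FPKM (0.842). In control 3 only Sox12 passed, at 50.2, 50.1, 58.9 and 51.4 FPKM (0.861).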

How the results depend on the processing

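The number of genes in the set stayed within 1.5 times its value of 10658 under every alternative, from 7731 (5 FPKM in all 4 samples) to 11382 (values of each sample rescaled to a sum of 1000000), and from 10707 to 10791 without 1 replicate. The share of the 100 most abundant genes was 16.3% with mitochondrially encoded genes in the denominator and 44.5% for 500 genes, and 22.0% to 22.8% without 1 replicate. The median CV was 7.92% for genes of 5 FPKM or more and 7.48% (without control 1) to 9.65% (without control 3) with a replicate left out. Rescaling to a sum of 1000000 outside the mitochondrial genome changes the unit, and the sums of precursor, myelinating and microglial genes became 10274, 2881 and 707. Without 1 replicate these sums were 3488 to 3557, 956 to 1029, and 212 (without control 4) to 256 FPKM. The count of families with the same leader throughout was 64 to 66, and only the E proteins changed leader, to Tcf4, without control 1 or by the median. Leaving out a replicate can only keep or raise this count, and the same holds for the number of genes in the set. Of 1102 alternative values of 274 named levels, 1101 moved by less than the spread between samples, and 1 moved (Nr3c1, 33.9 FPKM with its rows summed). Nearly all of these values left out 1 replicate. With 4 samples this cannot move a mean by as much as the SD, so the count does not show how firm the levels are.

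No paired analysis was possible because the values come from 1 group and from no test. Depth as a number of fragments is unknown, so the error of low values cannot be given, and values near 0 or listed at 0 show no absence. The FPKM scale is relative, and close copies or overlapping genes are uncertain. No counts were at hand, so no interval was made.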
